A study of Mus musculus with 19 samples.

Results

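The genes described here are 10 genes of epidermal growth factor (EGF) receptor signalling, followed in mouse hepatic stellate cells (HSCs) over the first 96 h on plastic. They were chosen by name, as 3 ligands (Hbegf, Areg and Ereg), the receptor Egfr, and 6 genes that the receptor's ERK pathway is known to induce and that act back on signalling (Dusp4, Dusp5, Dusp6, Spry2, Spry4 and Phlda1). The choice was made with earlier results of these data known. All 10 were matched by symbol to rows of the count table, which holds 55487 gene identifiers, and 9 of them passed the filter on low counts that left 15138 genes to test. Areg did not pass it. In brief, Ereg and Hbegf were far above the uncultured level at each culture time and Egfr moderately so. The Egfr calls at 3, 24 and 96 h needed both 0 h samples. Between 6 h and 96 h, a pair picked with the levels known, Dusp5, Dusp6, Spry2, Spry4 and Phlda1 were all lower at 96 h. The Spry4 call there depended on single samples. Relative to 0 h, only Dusp5 and Dusp6 among them were called lower at 96 h in the main fit. That Dusp5 call depended on a single 0 h sample, and another tool, DESeq2, also called Spry2 lower. Whether any pair of genes differed in its change was not tested.

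HSCs are the vitamin A storing cells of the liver sinusoid, and they turn into matrix-producing myofibroblasts after injury or on a culture plate. EGF family ligands are made as membrane-bound precursors, are released by proteases such as those of the ADAM family, and bind ERBB receptors, which signal through RAS and the kinases RAF, MEK and ERK. Active ERK induces its own brakes, among them dual specificity phosphatases (Dusp genes) that remove phosphate from ERK and related kinases, and Sprouty proteins (Spry genes) that act between receptor and RAS, so that the level of these transcripts is often read as a record of recent pathway activity.

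The cells came from healthy male Balb/c mice of 23–24 weeks, without any transgene or injury, and were sorted by the fluorescence of their vitamin A. The 0 h group was collected without culture (2 samples). The culture groups were kept on collagen-coated plates in DMEM with 10% fetal bovine serum, a source of growth factors, with fresh medium after 3 h and 24 h. They were collected after 3, 6, 12, 18 or 96 h (3 samples each) or 24 h (2 samples). The medium that held the 0 h cells before collection is not given. Each sample stands for 2 technical repeats, and the study's methods call the samples of a timepoint independent repeats. Sample labels carry a number from 1 to 3. Number 2 always has an isolation date of its own, and numbers 1 and 3 share the other date. Number 1 is missing at 0 h and number 3 at 24 h. Values below are given in the order of these numbers.

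RNA was measured with a 3' end library kit, and the 19 samples held 2073171 to 7690892 counts, the fewest in a 0 h sample and the most in a 12 h sample. Levels are given as TMM-scaled CPM, that is, counts relative to the scaled library total, and 3 counts, taken as the smallest amount the depth can show, equal 0.385 to 1.503 CPM; this floor covers counting error only. All 10 markers of stellate cells had counts at each timepoint, with a summed level of 28970 to 33068 CPM at 0 h and 1992 to 2007 CPM at 24 h. The 10 hepatocyte markers summed to 4202 to 8500 CPM at 0 h, 737 to 1573 CPM at 3 h and at most 453 CPM from 6 h on. In such bulk samples, fewer cells of a type and less RNA per cell cannot be told apart. A gene was called at a Benjamini-Hochberg adjusted p below 0.1 over all genes tested, by edgeR's quasi-likelihood test, and a fold change above 2; adjusted p-values below are from this test. All comparisons with 0 h share the same 2 uncultured samples.

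Ereg encodes epiregulin, a ligand of the EGF receptor and of ERBB4 (ENSMUSG00000029377, chr5:91074622-91093646, plus strand, mm10). Its level was 10.0 and 17.03 CPM in the 0 h samples, 184, 170 and 218 CPM at 3 h, 493, 531 and 552 CPM at 6 h, and 746, 733 and 919 CPM at 12 h. It was 479, 540 and 657 CPM at 18 h, 273 and 435 CPM at 24 h, and 531, 522 and 660 CPM at 96 h. No cultured sample overlapped the uncultured ones, and the groups at 0, 3, 6 and 12 h did not overlap each other. Relative to 0 h, Ereg rose by 3.84 on the log2 scale at 3 h (SE 0.29, adjusted p = 1.7e-06), by 5.91 at 12 h (SE 0.32, adjusted p = 3.34e-08) and by 5.42 at 96 h (SE 0.31, adjusted p = 2.14e-08). The values for 6, 18 and 24 h were 5.30, 5.39 and 4.73. The 12 h value is a 60.0-fold rise, with log2 ratios of 5.75 and 6.19 within the numbers that have both timepoints. From highest to lowest mean the order of timepoints was 12, 96, 18, 6, 24, 3 and 0 h, in which the samples at 96, 18 and 6 h overlapped and all other neighbours did not. Ereg also rose from 3 h to 6 h by 1.46 on the log2 scale (SE 0.21, adjusted p = 0.00138), in all 3 numbers. None of the later steps passed the test for Ereg: from 6 h to 12 h the adjusted p was 0.218, from 12 h to 18 h 0.515, from 18 h to 24 h 0.656 and from 24 h to 96 h 0.209.

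Hbegf encodes heparin-binding EGF-like growth factor, which also binds the EGF receptor (ENSMUSG00000024486, chromosome 18, minus strand). Its level was 7.01 and 17.5 CPM at 0 h, from 28 and 35 counts, and rose to 207, 131 and 150 CPM within 3 h. It was 67.0, 71.3 and 176 CPM at 6 h, 207, 142 and 233 CPM at 12 h, 128, 116 and 141 CPM at 18 h, 111 and 130 CPM at 24 h, and 94.95, 59.2 and 76.7 CPM at 96 h. Each of the 17 cultured samples lay above both uncultured ones, whereas neighbouring culture times overlapped in 3 of 5 steps. Hbegf rose 13.5-fold by 3 h (log2 fold change 3.76, SE 0.51, adjusted p = 0.000267), was 16.1-fold above 0 h after 12 h (4.01, SE 0.52, adjusted p = 5.2e-05) and still 6.40-fold above it after 96 h (2.68, SE 0.49, adjusted p = 0.00174). The log2 values for 6, 18 and 24 h were 3.12, 3.42 and 3.32, all called. The folds depended on the uncultured samples: without 0 h sample number 3 the log2 values for 3, 6, 12, 18, 24 and 96 h were 4.53, 3.86, 4.77, 4.15, 4.10 and 3.45. Without 0 h sample number 2 the 18 h value was 2.81, and without 6 h sample number 3 the 6 h value was 2.52. All of these kept their call. From highest to lowest mean the order was 12, 3, 18, 24, 6, 96 and 0 h, and only the last pair of neighbours did not overlap. Thus Hbegf was near its highest level at the 3 h collection, when Ereg stood at 191 ± 24.9 CPM (SD, n = 3) against 799 ± 104 CPM (n = 3) at 12 h.

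Cells other than HSCs also make these ligands, so markers were set beside them. The 8 sinusoidal endothelial markers summed to 503 to 834 CPM at 0 h, 743 to 2557 CPM at 3 h and 8.74 to 139 CPM at 96 h, with Stab2 and Tek at 0 counts at 96 h and Lyve1 at 0 counts at both 0 h and 96 h. The 10 markers of Kupffer cells and leukocytes summed to 245 to 284 CPM at 0 h and 23.3 to 46.1 CPM at 96 h, where 8 of the 10 had 0 counts: Cd3e and Cd79a, already at 0 in the uncultured samples, and Ptprc, Cd68, Clec4f, Adgre1, Tyrobp and Ccr2. The part of these cells in the ligand levels was not tested.

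Areg encodes amphiregulin, a further ligand of the same receptor (ENSMUSG00000029378, chr5:91139599-91148432, plus strand). It had 0 counts in 18 of 19 samples, both uncultured ones included, and 120 counts (15.99 CPM) in 12 h sample number 3, whose 2 companions had 0. By counting error alone, a count of 0 allows up to 3 counts, or 0.385 to 1.503 CPM. Zeros beside clear signal also occur in these libraries, as given below for Dusp4, so the zeros of Areg set no firm upper limit. Amphiregulin transcripts were counted in that library only. Such values are a feature of the table as a whole: 35 genes had 100 or more counts in a single sample and 0 in all others, with 0 to 5 such genes per sample and 5 in that 12 h library, the most of any. What set them was not tested.

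Ereg and Areg are neighbours. Epgn, Ereg, Areg and Btc, each coding for an EGF family ligand, are the 4 protein-coding genes within 375531 bp of chromosome 5, and over the 19 samples they held 0, 45897, 120 and 2255 counts. Btc (betacellulin; chr5:91357261-91402994, minus strand), the other gene of the row with counts in more than 1 sample, was at 0 in all samples through 18 h and at 5.36 and 0 CPM at 24 h. It then stood at 170, 157 and 138 CPM at 96 h, so the 96 h samples lay apart from all others. Against the floor of the smaller 0 h library (1.503 CPM), which covers counting error only, the 96 h mean of 155 CPM was at least 103-fold higher. Btc passed the filter on low counts only through its 96 h samples, so p-values for 96 h add no separate support. The adjusted p was 0.0481 against 0 h and 0.0158 against 6 h. With the replicate number as a block, the adjusted p against 0 h was 0.113, and DESeq2 gave 0.204, so that call depended on the model. Against 6 h it was 0.0439 and 0.0865.

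The promoter window of Areg is printed because its transcript was counted in 1 sample only, beside an abundant neighbour. It runs over the 250 bases before the start site, chr5:91139349-91139598 on the plus strand, with sequence from RefSeq for GRCm38.p6. Capitals mark the letters TGACGTCA (a cAMP response element), whose first base lies 61 bases before the start, and TATAAA, 31 bases before it.
Areg: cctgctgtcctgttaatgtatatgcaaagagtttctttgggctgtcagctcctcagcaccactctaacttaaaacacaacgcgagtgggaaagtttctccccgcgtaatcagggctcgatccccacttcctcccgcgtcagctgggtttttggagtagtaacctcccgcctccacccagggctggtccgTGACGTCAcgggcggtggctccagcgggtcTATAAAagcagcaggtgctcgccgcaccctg
Of the 32851 promoter windows in the same table, which reach 50 bases past the start, 1.79% hold TGACGTCA on either strand and 13.6% hold TATAAA.

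Egfr encodes the EGF receptor itself (ENSMUSG00000020122, chr11:16752203-16918158, plus strand). Its level was 52.3 and 52.6 CPM at 0 h, 147, 144 and 115 CPM at 3 h, 222, 171 and 146 CPM at 6 h, and 233, 332 and 269 CPM at 12 h. It was 168, 380 and 209 CPM at 18 h, 91.9 and 167 CPM at 24 h, and 119, 121 and 160 CPM at 96 h. All cultured samples lay above the uncultured ones, while neighbours in the order of mean among cultured groups (12, 18, 6, 3, 96 and 24 h) overlapped. Egfr rose 5.29-fold by 12 h (log2 fold change 2.40, SE 0.37, adjusted p = 0.000247). The log2 values for 3, 6, 18, 24 and 96 h were 1.37, 1.77, 2.26, 1.30 and 1.34, each called. The calls at 3, 24 and 96 h were lost when either 0 h sample was left out, with adjusted p between 0.132 and 0.212 and log2 values of 1.27 to 1.40. The 24 h call also went without 24 h sample number 2 (0.81, adjusted p = 0.483), with RLE size factors (1.07, adjusted p = 0.106) and in a fit of the 2 groups alone (1.27, adjusted p = 0.117).

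Hepatocytes express Egfr as well, and the hepatocyte marker sum was highest in the uncultured samples, where Egfr was lowest; the part of these cells in its level was not tested. Of the other ERBB receptors, Erbb3 and Erbb4 reached at most 0.889 and 0.0662 CPM as a group mean, and Erbb2 stood at 9.01 ± 2.84 CPM at 0 h (SD over its 2 samples) and 15.8 CPM after 24 h, without a call at any time. Egfr overlaps the antisense gene Egfros over 15272 bp, and Egfros held 461 counts over the 19 samples. Whether counting used the strand is not given in the sources used here, and the part of antisense reads in the Egfr level was not tested.

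**Figure D1:**
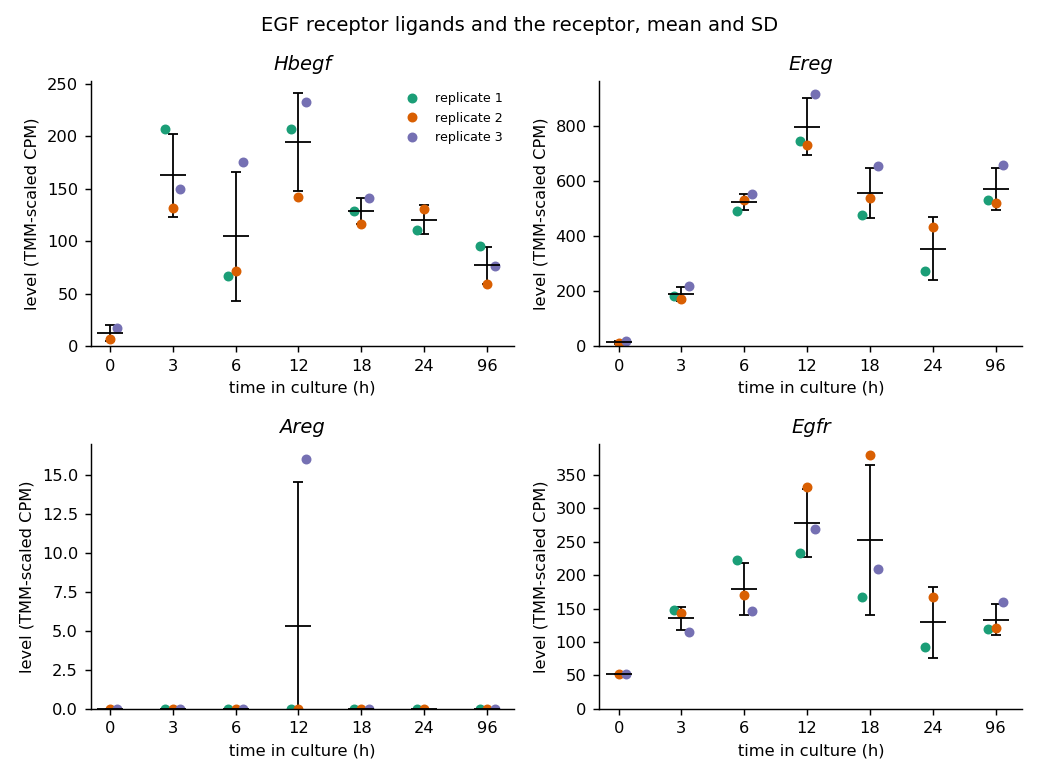
Level (TMM-scaled CPM) of the ligand genes Hbegf, Ereg and Areg and of the receptor gene Egfr by time in culture, with 1 point per sample coloured by replicate number and black lines for the mean and SD (n = 3, or 2 at 0 h and 24 h). Ereg climbs from 13.5 CPM at 0 h to 799 CPM at 12 h and stays at 571 CPM at 96 h, Hbegf is already at 163 CPM at 3 h, Egfr peaks at 278 CPM at 12 h, and Areg has counts in 1 sample only.

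Dusp6 encodes a cytoplasmic phosphatase specific for ERK (ENSMUSG00000019960, chr10:99263231-99267489, plus strand), and it dipped, came back and declined again. Its level was 374 and 268 CPM at 0 h, 91.4, 91.9 and 132 CPM at 3 h, and 355, 400 and 371 CPM at 6 h. It was 143, 220 and 264 CPM at 12 h, 84.0, 141 and 160 CPM at 18 h, 106 and 55.0 CPM at 24 h, and 98.4, 63.0 and 84.6 CPM at 96 h. The 3 h samples lay below both the 0 h and the 6 h samples without overlap, while 0 h and 6 h overlapped. Dusp6 fell by 1.61 on the log2 scale from 0 h to 3 h (SE 0.34, adjusted p = 0.00962) and rose by 1.84 from 3 h to 6 h (SE 0.32, adjusted p = 0.00367), the latter in all 3 numbers, with ratios of 1.49 to 2.12. At 6 h its log2 fold change against 0 h was 0.23 (SE 0.34, adjusted p = 0.758). At 18, 24 and 96 h it had fallen by 1.32, 2.00 and 1.97 on the log2 scale (adjusted p = 0.0158, 0.00329 and 0.00112). Without 0 h sample number 2, the calls at 3 h and 18 h were lost (-1.32, adjusted p = 0.153, and -1.12, adjusted p = 0.146). Medium was changed at 3 h, between the 3 h and 6 h collections; its part in the step cannot be told apart from that of time.

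Dusp5 encodes a nuclear phosphatase that also acts on ERK (ENSMUSG00000034765, chr19:53529109-53542431, plus strand). Its level was 298 and 76.1 CPM in the 0 h samples, 159, 367 and 186 CPM at 3 h, 277, 173 and 251 CPM at 6 h, and 168, 176 and 338 CPM at 12 h. It was 86.4, 148 and 86.5 CPM at 18 h, 58.1 and 90.8 CPM at 24 h, and 17.2, 35.7 and 9.25 CPM at 96 h. The uncultured samples lay far apart and overlapped every group except 96 h, whose samples were the lowest of all. The log2 fold change at 96 h against 0 h was -3.18 (SE 0.60, adjusted p = 0.00238), or 9.05-fold lower, with -3.06 and -3.04 within numbers 2 and 3. Without 0 h sample number 2 it was -1.88 with an adjusted p of 0.107. Without 0 h sample number 3 it was -3.86, and without 96 h sample number 2 it was -3.84. The log2 values for 3, 6 and 12 h were 0.34, 0.31 and 0.28, with SEs of 0.59, and at 18 h and 24 h -0.81 and -1.33, none of them called by edgeR. DESeq2 called the 24 h value (-1.55, adjusted p = 0.0953), and so did edgeR without 0 h sample number 3 (-2.0003, adjusted p = 0.0994).

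Dusp4, another nuclear phosphatase of the family (ENSMUSG00000031530, chr8:34807297-34819894, plus strand), was near the floor. It had 0 counts in both 0 h samples, 5.30, 5.50 and 2.18 CPM at 3 h, 6.52, 18.3 and 4.56 CPM at 6 h, and 22.7, 13.05 and 0 CPM at 12 h. It was 9.98, 0 and 4.84 CPM at 18 h, 4.93 and 3.72 CPM at 24 h, and 16.3, 10.8 and 7.23 CPM at 96 h, from 57, 56 and 43 counts. It was thus detected in 15 of the 17 cultured samples and in neither uncultured one. Against the 0 h floor of 1.503 CPM, which covers counting error only, the mean was at least 7.92-fold higher at 12 h (adjusted p = 0.071). At 96 h it was at least 7.61-fold higher (adjusted p = 0.0994), and these 2 timepoints were called. With the replicate number as a block the adjusted p was 0.122 and 0.141, and neither held. Both calls were also lost without either 0 h sample and without the filter on low counts. The 12 h call was lost without 12 h sample number 1 (adjusted p = 0.121) or 2 (0.110) and in a fit of the 2 groups alone (0.227). The 96 h call was lost without any 1 of the 96 h samples, with RLE size factors (0.106) and with the isolation date as a covariate (0.121). DESeq2 instead called Dusp4 higher at all 6 culture times, with adjusted p of 0.0588, 0.0121, 0.0327 and 0.0668 for 3, 6, 18 and 24 h, and library-size scaling added the 6 h call (0.0995). A zero beside clear signal is common in these libraries: among 38598 pairs of a gene and a timepoint of 3 samples in which 2 or more exceeded 10 CPM, 6.97% had the remaining sample at 0.

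Spry2 encodes a Sprouty protein that restrains receptor tyrosine kinase signalling (ENSMUSG00000022114, chr14:105891947-105896819, minus strand). Its level was 99.1 and 75.6 CPM at 0 h, 161, 112 and 144 CPM at 3 h, 132, 162 and 155 CPM at 6 h, and 127, 128 and 145 CPM at 12 h. It was 76.9, 74.9 and 81.6 CPM at 18 h, 61.5 and 100 CPM at 24 h, and 41.8, 69.4 and 27.9 CPM at 96 h. The samples at 3, 6 and 12 h all lay above those at 0 h and those at 96 h all below, but the fits against 0 h called none of these: the log2 fold change was 0.78 at 6 h (SE 0.33, adjusted p = 0.178) and -0.92 at 96 h (SE 0.32, adjusted p = 0.0994, under the fold limit). With DESeq2 the 96 h value was -1.07 (adjusted p = 0.012) and passed. It also passed by edgeR with RLE size factors (-1.07, adjusted p = 0.0482) and without 96 h sample number 2 (-1.33, adjusted p = 0.0116).

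Spry4, a related Sprouty gene (ENSMUSG00000024427, chromosome 18, minus strand), was at 51.6 and 18.0 CPM at 0 h, 44.4, 34.7 and 40.0 CPM at 3 h, 42.4, 51.0 and 55.8 CPM at 6 h, and 54.6, 103 and 66.5 CPM at 12 h. It was 27.7, 69.2 and 51.5 CPM at 18 h, 17.8 and 24.8 CPM at 24 h, and 15.2, 23.8 and 15.5 CPM at 96 h. The uncultured samples again lay apart and overlapped all groups but 12 h, and Spry4 was not called against 0 h at any time. Its largest log2 fold change was 1.10 at 12 h (SE 0.51, adjusted p = 0.178), which was called with the isolation date as a covariate (1.25, adjusted p = 0.0886) and without 0 h sample number 2 (2.05, adjusted p = 0.0806).

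Phlda1 encodes a pleckstrin homology-like domain protein induced by growth factors (ENSMUSG00000020205, chr10:111506286-111508645, plus strand). Its level was 629 and 584 CPM at 0 h, 1163, 1328 and 1092 CPM at 3 h, 1537, 2687 and 2084 CPM at 6 h, and 1217, 1454 and 1332 CPM at 12 h. It was 420, 717 and 594 CPM at 18 h, 409 and 544 CPM at 24 h, and 320, 396 and 316 CPM at 96 h. The samples at 3, 6 and 12 h lay wholly above those at 0 h, 18 h overlapped them, and 24 h and 96 h lay wholly below. The share of all genes with such separation was not taken. At 24 h, with 2 samples against 2, the log2 fold change was -0.35 (SE 0.26, adjusted p = 0.485) and was not called. Phlda1 was called higher at 6 h (log2 fold change 1.79, SE 0.25, adjusted p = 0.000205) and at 12 h (1.14, SE 0.25, adjusted p = 0.0046), and it fell from 12 h to 18 h by 1.21 on the log2 scale (SE 0.21, adjusted p = 0.0267). With RLE size factors, and likewise with DESeq2, the 12 h value was 0.90 and under the fold limit. The fall to 18 h lost its call in a fit of the 2 groups alone (adjusted p = 0.205), without 12 h sample number 3 (0.101) and without 18 h sample number 1 (0.114). At 3 h the value of 0.98 (adjusted p = 0.0307) was just under the fold limit, and with the replicate number as a block it was 1.08 (adjusted p = 0.0014). At 96 h it was -0.82 (adjusted p = 0.0384), likewise under the limit.

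**Figure D2:**
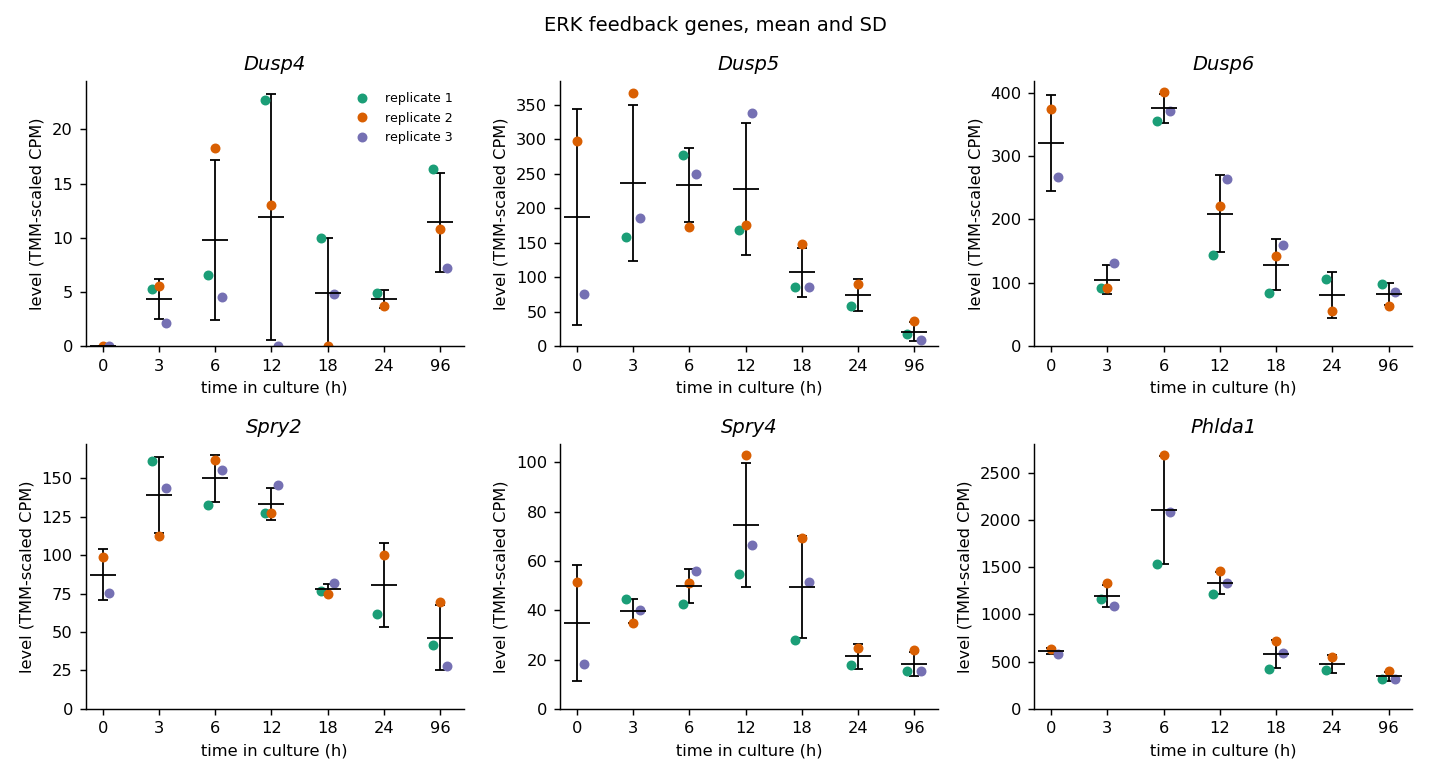
Level (TMM-scaled CPM) of the feedback genes Dusp4, Dusp5, Dusp6, Spry2, Spry4 and Phlda1 by time in culture, with 1 point per sample coloured by replicate number and black lines for the mean and SD (n = 3, or 2 at 0 h and 24 h). Dusp6 drops to 105 CPM at 3 h and returns to 376 CPM at 6 h, Phlda1 peaks at 2103 CPM at 6 h, and all but Dusp4 are lowest or near their lowest at 96 h.

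The genes were chosen with earlier results of these data known, so the counts and medians below describe this list and do not test it. Counted together, 3 of the 9 tested genes (Ereg, Hbegf and Egfr) were called higher after 3 h and Dusp6 lower, where 5.58% of all genes tested were called, 4.19% higher and 1.39% lower. After 6 h Phlda1 joined the higher ones, making 4, and none was lower, where 11.3% of all genes were called, 6.98% higher and 4.35% lower. After 12 h 5 were higher, Dusp4 included, and none lower, where the share was 17.7%, with 8.6% higher and 9.1% lower. DESeq2 called 4 after 12 h, without Phlda1. After 18 h the count was again 3 higher and 1 lower, the same genes as after 3 h, against 15.9%, with 7.64% higher and 8.21% lower. These 4 were also the ones called after 24 h, against 9.51%, with 5.65% higher and 3.86% lower. After 96 h Ereg, Hbegf, Egfr and Dusp4 were higher and Dusp5 and Dusp6 lower, 6 of 9 where 10.9% of all genes were called, 5.83% higher and 5.03% lower. The median log2 fold change over the 9 genes was 0.98, 1.77, 1.14, 0.50, -0.12 and -0.82 from 3 h to 96 h, where the median over all genes tested was 0.00, except 0.07 at 96 h; setting Dusp4 to its bound left these medians as they were. At 6 h and 12 h, where no gene was called lower by edgeR, none had an unadjusted p under 0.05 in that direction, and DESeq2 called none lower either.

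**Figure D3:**
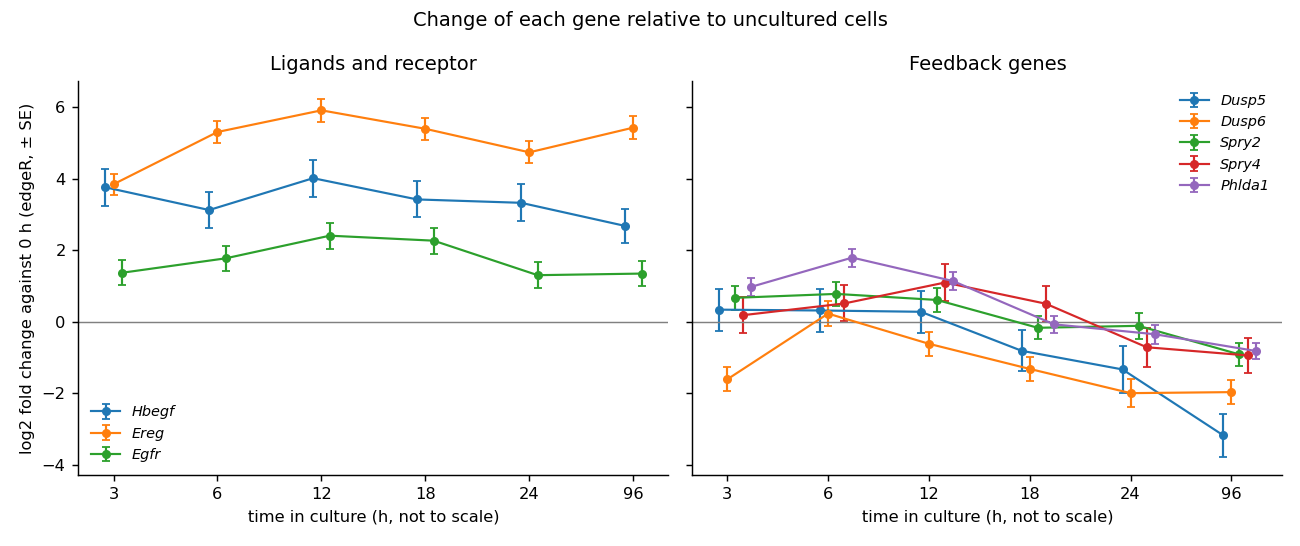
Log2 fold change against uncultured HSCs at each culture time from edgeR (points, with SE as bars) for Hbegf, Ereg and Egfr on the left and for Dusp5, Dusp6, Spry2, Spry4 and Phlda1 on the right; Dusp4 and Areg are left out because both 0 h samples held 0 counts. The ligand and receptor genes lie above 0 throughout, up to 5.91 for Ereg at 12 h, and the feedback genes move from values of up to 1.79 at 6 h to values between -0.82 and -3.18 at 96 h.

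To see how the genes changed within culture, without the 2 uncultured samples, each timepoint was compared with the one before it. From 3 h to 6 h Ereg and Dusp6 rose and none fell, 2 of 9 where 4.49% of all genes were called, 2.5% higher and 1.99% lower. From 6 h to 12 h no member was called by edgeR or DESeq2, where 1.84% of all genes were, 0.416% higher and 1.42% lower. At an unadjusted p under 0.05, Hbegf, Ereg and Egfr were higher and Dusp6 and Phlda1 lower over that step. From 12 h to 18 h Phlda1 alone was called, lower, where 0.225% of all genes were, 0.0727% higher and 0.152% lower. Ereg, Dusp6 and Spry2 were also lower at an unadjusted p under 0.05. From 18 h to 24 h neither tool called a member, where 0.0396% of all genes were called, 0.0132% higher and 0.0264% lower, and 3 (Ereg, Egfr and Spry4) were lower at an unadjusted p under 0.05. From 24 h to 96 h edgeR called none, where 2.72% of all genes were called, 1.37% higher and 1.35% lower. DESeq2 called Dusp5 lower over this last step, and at an unadjusted p under 0.05 Ereg was higher and Dusp5 and Spry2 lower.

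The 96 h samples were also compared with those at 6 h, where several feedback genes had their highest mean; this pair was picked with the levels known. All 5 of Dusp5, Dusp6, Spry2, Spry4 and Phlda1 were called lower, and none of the 9 higher, where 13.2% of all genes tested were called, 7.46% lower and 5.76% higher. Dusp5 went from 277, 173 and 251 CPM to 17.2, 35.7 and 9.25 CPM, a log2 fold change of -3.49 (SE 0.58, adjusted p = 0.000701) or 11.2-fold. Without 96 h sample number 2 it was -4.15. Phlda1 changed by -2.61 (SE 0.22, adjusted p = 1.44e-06), Dusp6 by -2.19 (SE 0.32, adjusted p = 0.00022) and Spry2 by -1.69 (SE 0.30, adjusted p = 0.00115). Spry4 changed by -1.45 (SE 0.45, adjusted p = 0.0501), and its call was lost without any of 4 single samples (number 2 or 3 at 6 h, number 1 or 3 at 96 h; adjusted p 0.106 to 0.156) and without the filter on low counts (0.138). For each of these 5 called genes every 96 h sample was below every 6 h sample. The log2 ratio within a replicate number ran from -1.10 for Spry4 to -4.76 for Dusp5, lower in 3 of 3 numbers. Such separation is likely for genes called in this same pair, so it adds no separate support, and its share over all genes was not taken. The median over all genes in this comparison was 0.12 with TMM scaling and 0.21 with library-size scaling, though more genes were called lower than higher.

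Over the same span the ligands, the receptor and Dusp4 gave smaller values. The log2 fold change was 0.12 for Ereg (SE 0.21, adjusted p = 0.784), -0.44 for Hbegf (SE 0.38, adjusted p = 0.498), -0.43 for Egfr (SE 0.30, adjusted p = 0.384) and 0.22 for Dusp4 (SE 1.65, adjusted p = 0.979), whose SE leaves a change of several fold in either direction possible. For all 4, the 6 h and 96 h samples overlapped. None of the 4 had an unadjusted p under 0.05, and DESeq2 called none. Whether any pair of genes differed in its change was not tested.

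**Figure D4:**
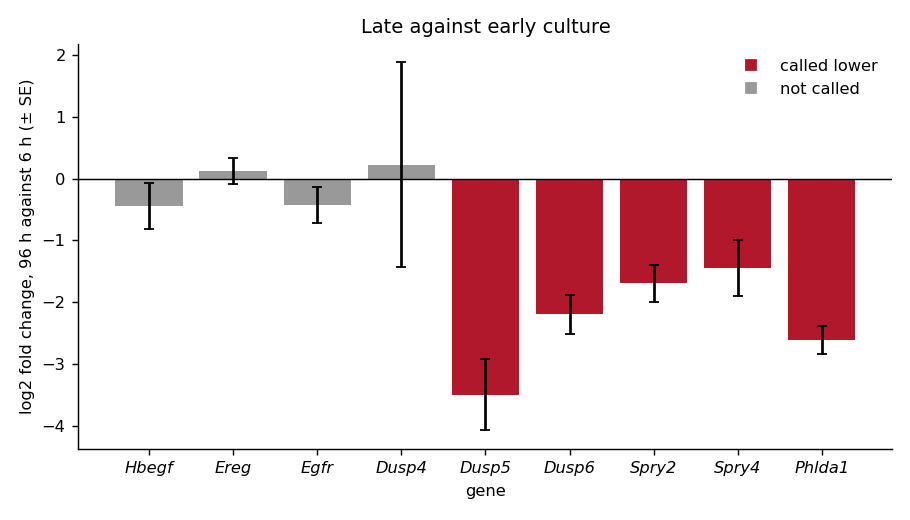
Log2 fold change at 96 h against 6 h of culture from edgeR (bars from 0, with SE as lines) for the 9 genes tested, coloured by whether the gene was called. Dusp5, Dusp6, Spry2, Spry4 and Phlda1 lie between -1.45 and -3.49, and Ereg, Hbegf, Egfr and Dusp4 between -0.44 and 0.22.

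Promoter windows are printed for the 3 of these 5 genes that had one in the RefSeq table for GRCm38.p6, since they moved together between 6 h and 96 h. Each covers the 250 bases before the RefSeq start site: Dusp5 at chr19:53528895-53529144 on the plus strand, Dusp6 at chr10:99262981-99263230 on the plus strand and Spry2 at chr14:105896820-105897069 on the minus strand. Capitals mark matches to the CArG box bound by serum response factor, AP-1 (TGANTCA), CRE (TGACGTCA), ETS (CCGGAAG), EGR (GCGTGGGCG) and TATAAA, on either strand.
Dusp5: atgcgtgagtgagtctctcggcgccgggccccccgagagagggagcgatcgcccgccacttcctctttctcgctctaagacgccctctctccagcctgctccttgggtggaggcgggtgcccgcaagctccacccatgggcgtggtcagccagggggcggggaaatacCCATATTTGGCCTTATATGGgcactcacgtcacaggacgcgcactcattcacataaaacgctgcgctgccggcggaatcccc
Dusp6: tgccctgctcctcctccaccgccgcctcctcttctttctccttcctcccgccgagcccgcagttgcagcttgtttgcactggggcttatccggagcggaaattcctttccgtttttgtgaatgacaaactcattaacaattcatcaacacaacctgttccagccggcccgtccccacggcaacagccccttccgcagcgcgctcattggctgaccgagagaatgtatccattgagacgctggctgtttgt
Spry2: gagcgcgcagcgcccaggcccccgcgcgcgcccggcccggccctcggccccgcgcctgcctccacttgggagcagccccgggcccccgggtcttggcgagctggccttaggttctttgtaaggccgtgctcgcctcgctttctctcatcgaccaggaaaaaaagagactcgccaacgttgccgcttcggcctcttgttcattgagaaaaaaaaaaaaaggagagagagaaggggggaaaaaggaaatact
Dusp5 holds a pair of CArG boxes side by side, starting 82 and 72 bases before the RefSeq start site, which lies 36 bases inside the gene as annotated by GENCODE and printed above, and 1.63% of the 32851 windows hold 1 or more. The windows of Dusp6 and Spry2 hold no match to these letters, which is a statement on these windows only. The window of Egfr holds the ETS letters once, on the reverse strand 120 bases before the start, as do 8.86% of all windows. The shares for AP-1 and EGR were 7.81% and 0.612%. The NF-kB motif (0.155%) was searched as well and found in none of the 5 windows of these genes, and GGGCGG (GC box, 35.7%) was found in those of Areg, Dusp5 and Egfr. A match is a run of letters and was not tested for binding.

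The other genes of the pathway were taken from 7 lists with 70 symbols, of which 69 matched the table and 61 were tested. These lists, too, were chosen with earlier results of these data known. In all, 8 were called higher and 4 lower after 3 h (5.58% of all genes tested were called), 9 and 6 after 6 h (11.3%), 11 and 9 after 12 h (17.7%), 9 and 7 after 18 h (15.9%), 4 and 4 after 24 h (9.51%), and 5 and 5 after 96 h (10.9%). The 8 of 61 after 24 h are close to the share of all genes. The median log2 fold change over the 61 was 0.00, 0.44, 0.05, 0.34, 0.29 and 0.00 in the same order. Among 8 other EGF family ligands, 3 were tested and only Btc was called, at 96 h; group means of Egf, Nrg2, Nrg3, Nrg4 and Epgn stayed at or below 2.13 CPM. Of the 3 other receptors, Erbb2 alone was tested.

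The brakes at receptor and RAS level (16 symbols, 15 tested) held 3 genes called higher at 3, 6, 12 and 18 h, Errfi1, Socs5 and Rasa2, and Spry1 called lower at every time. At those 4 times 4.19% to 8.6% of all genes tested were called higher, and over all culture times 1.39% to 9.1% lower. Errfi1, whose product binds and inhibits the EGF receptor, was at 149 and 164 CPM at 0 h and 1477, 1787 and 2432 CPM at 6 h, and returned to 118, 210 and 88.5 CPM at 96 h. It rose by 3.60 on the log2 scale at 6 h (SE 0.47, adjusted p = 0.000105) and was lower at 96 h than at 6 h by 3.78 (log2 fold change -3.78, adjusted p = 1.04e-05). Spry1, a Sprouty gene like Spry2, moved otherwise: it was at 364 and 329 CPM at 0 h, 61.3, 79.0 and 115 CPM at 3 h, and 31.8, 58.0 and 27.6 CPM at 96 h, where it had fallen by 3.15 (SE 0.48, adjusted p = 0.000358). Socs5 rose from 13.3 CPM to 124 CPM at 12 h (log2 fold change 3.22, adjusted p = 0.000343), and Rasa2, a RAS GTPase-activating gene, from 21.2 CPM to 91.2 CPM at 6 h (2.11, adjusted p = 0.00139). At 96 h against 6 h, 6 of the 15 were called lower and none higher, where 7.46% of all genes were lower and 5.76% higher, and the list's median was -1.40 against 0.12 over all genes.

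Of 8 other MAP kinase phosphatases, all tested, Dusp8 and Dusp10, which act mainly on JNK and p38, were called higher from 3 h to 18 h and Dusp1 lower at every time. Of all genes tested, 4.19% to 8.6% were called higher from 3 h to 18 h, and 1.39% to 9.1% lower over all culture times. Dusp8 went from 10.3 CPM to 178 CPM at 3 h (log2 fold change 4.07, SE 0.76, adjusted p = 0.00434), Dusp10 from 31.4 CPM to 138 CPM at 6 h (2.13, adjusted p = 0.00366), and Dusp1 from 1107 CPM to 92.2 CPM at 24 h (-3.59, SE 0.44, adjusted p = 5.49e-05). At 96 h against 6 h, Dusp8 and Dusp10 were lower, where 7.46% of all genes tested were called lower. Dusp6 and Dusp1 were thus both below the uncultured level at 3 h, whereas Dusp8 and Dusp10 were above it.

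Among 11 other ERK output genes, 10 tested, the immediate early genes Fos and Egr1 fell. Fos went from 2732 CPM at 0 h to 278 CPM at 3 h and 2.36 CPM at 24 h (log2 fold change -10.15, SE 0.56, adjusted p = 3.35e-08). Egr1 stood at 1648 CPM at 0 h, 1316 CPM at 3 h and 1897 CPM at 6 h and then at 512 CPM at 12 h and 47.4 CPM at 96 h (-5.12, SE 0.42, adjusted p = 8.79e-07). Myc rose from 19.8 CPM to 382 CPM at 12 h (4.28, SE 0.84, adjusted p = 0.00215) and was at 14.5 CPM at 96 h. Etv1, at 54.4 CPM at 0 h, held 0 to 4 counts in the 12 h samples, a mean under the floor, and was called lower then (adjusted p = 0.0329) but not after 6 h (0.314) or 18 h (0.204). Fos and Egr1 were high in the uncultured cells, as were Dusp6 and Dusp1; what the sort contributed to the 0 h levels was not tested.

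Of 7 genes of ligand release, all tested, Timp3, an inhibitor of ADAM proteases, rose from 182 CPM to 5122 CPM at 18 h (log2 fold change 4.82, SE 0.82, adjusted p = 0.000785), and Adam9 from 30.4 CPM to 249 CPM at 96 h (3.02, adjusted p = 0.0231). Adam10, a main sheddase, was lower at 6 h, at 12.0 CPM against 62.6 CPM (-2.38, adjusted p = 0.0134), and Rhbdf1, which helps to bring the sheddase ADAM17 to the cell surface, was higher at 3 h, at 316 CPM against 104 CPM (1.60, adjusted p = 0.0276). Of the 17 adaptors, RAS genes and kinases, 3 were called higher and 3 lower after 12 h, where 8.6% of all genes were higher and 9.1% lower, and fewer at the other times. Mapk3, which encodes ERK1, stood at 314 CPM at 0 h, fell to 93.3 CPM at 18 h (-1.75, SE 0.33, adjusted p = 0.00183) and was at 396 CPM at 96 h, called higher than at 6 h. Gab1 fell to 3.21 CPM at 18 h from 108 CPM (-5.04, adjusted p = 0.0197) and Araf to 16.4 CPM at 12 h from 65.6 CPM (-1.999, adjusted p = 0.0334), while Sos2 rose to 94.9 CPM at 6 h from 28.9 CPM (1.71, adjusted p = 0.0522).

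**Figure D5:**
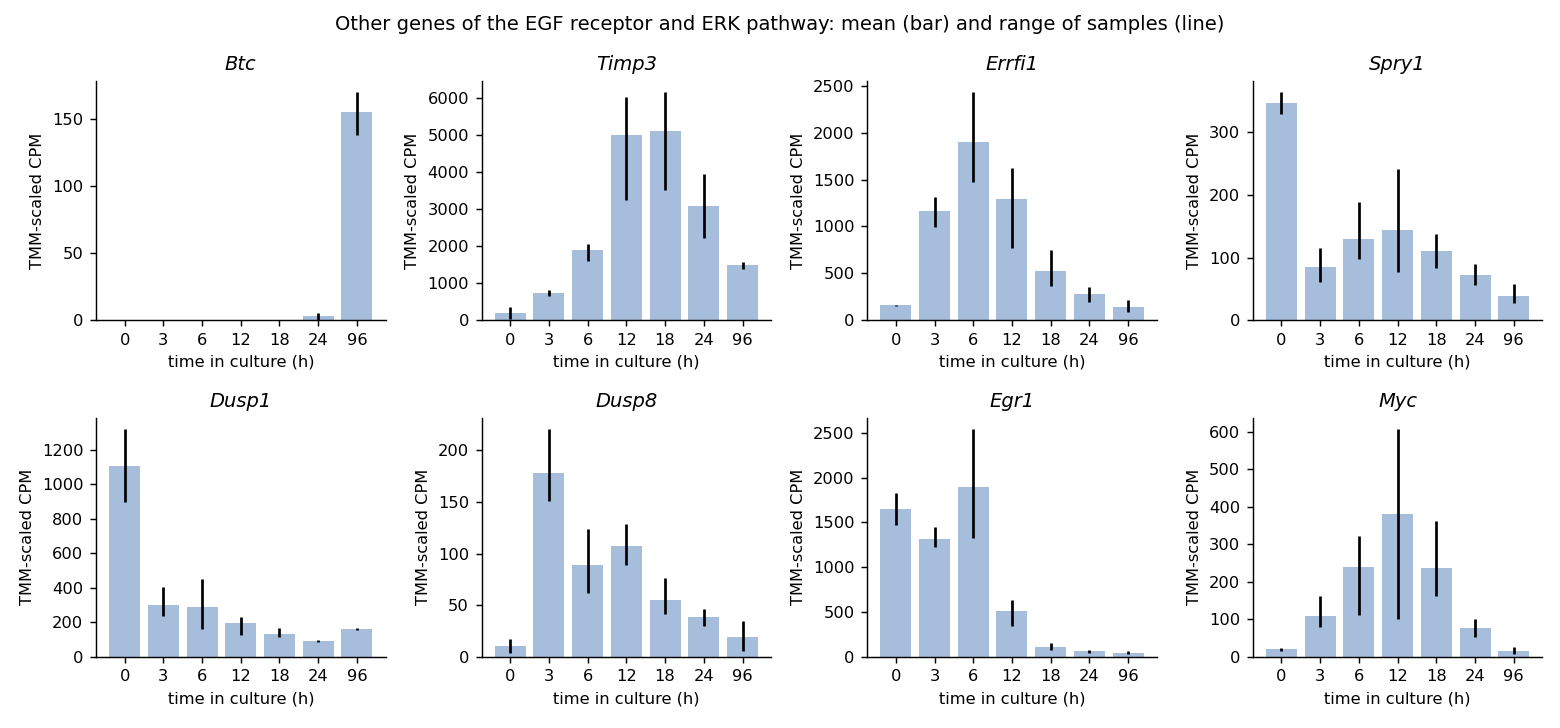
Mean level (bars, TMM-scaled CPM, from 0) and range of the samples (lines) by time in culture for 8 other genes of the pathway, with 3 samples per time or 2 at 0 h and 24 h. Btc appears at 96 h with a mean of 155 CPM, Errfi1 rises to 1899 CPM at 6 h and is at 139 CPM at 96 h, and Spry1 and Dusp1 are highest at 0 h, with means of 347 and 1107 CPM.

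The genes whose course over the 19 samples was most like that of each member were found by Pearson's r of log2 CPM, given as a description, since all points share the time course and its libraries. For Ereg the nearest was Bdnf (r = 0.970), a neurotrophin gene, and for Hbegf Jdp2 (0.898), an AP-1 family gene. For Phlda1 they were Herpud1 (0.934) and, as the second, the receptor inhibitor Errfi1 (0.922). For Egfr it was Atf6 (0.920), for Dusp5 Srsf7 (0.925), for Spry2 Irs2 (0.923), for Spry4 Zyg11b (0.874), for Dusp4 Ezh2 (0.875) and for Dusp6 Selenok, with the lowest r of these leading genes (0.855).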

How the data were processed

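RNA of 19 samples of sorted HSCs was sequenced from 3' end libraries, whose counts do not scale with transcript length. The values deposited are raw counts for each gene in each sample, with no scaling; the authors trimmed single-end reads, used STAR for mapping to GRCm38.p6 and StringTie for assembly. The counting tool, its annotation and its use of strand are not given in the sources used here. The files hold no molecular identifiers.

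Symbols and positions came from GENCODE vM21, which gave a symbol for 55141 of 55487 identifiers. In R 4.3.3, genes were filtered with filterByExpr of edgeR 4.0.16 at its defaults, given TMM factors and put through the quasi-likelihood test (glmQLFit, glmQLFTest) in 1 fit of all 19 samples without covariates; p-values were adjusted over all 15138 genes of a comparison. The code was tested on simulated data. Alternatives were DESeq2 1.42.0, RLE or library-size scaling, no filter, the replicate number as a block, the isolation date as a covariate, a fit of the 2 groups compared, other thresholds, and leaving out each sample. The labels tie number 2 to its own isolation date, and on that ground the number was used as a pairing in the block alternative. The main fit did not use it. The mean correlation of residuals was 0.014 for the 51 pairs that share a number and -0.0070 for the 103 that do not.

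The members and lists were chosen with earlier results of these data known. Of each pathway list, up to 4 genes were named: those with the largest absolute log2 fold change against 0 h among called genes with a mean of 10 CPM or more at some time; Erbb2, Erbb3, Erbb4, Egf, Nrg2, Nrg3, Nrg4 and Epgn were named after their values were seen, to state where the family was near 0. Of the 3 genes most like each member by Pearson's r among tested genes with a mean of 10 CPM or more, the first is given, and for Phlda1 the second too. The marker lists for cholangiocytes and mesothelial cells (4 genes each) summed to at most 1.39 and 15.5 CPM in any sample. Promoter sequences came from a RefSeq table with entries for 5 of the 10 genes.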

Additional observations from a re-analysis of the deposited data

How the results depend on the processing

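The calls of Ereg and Hbegf against 0 h held under all alternatives run, as did those of Dusp5, Dusp6, Spry2 and Phlda1 at 96 h against 6 h. Of the log2 values recomputed for members, 715 kept their direction and side of the threshold, 38 fell below it, 18 passed it and 24 changed sign, none of the last for a called value; causes were not tested. All comparisons with uncultured cells rest on the same 2 samples at 0 h, which lay apart for Dusp5 and Spry4.

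Without single samples, the number of members called ran from 2 to 5 at 3 h against 0 h (2 without 0 h sample number 2), 3 to 6 at 96 h against 0 h (3 without the same sample), 0 to 1 at 12 h against 6 h (Hbegf, without 6 h sample number 3), 0 to 1 at 18 h against 12 h and 0 to 2 at 96 h against 24 h (Dusp5 and Spry2, without 96 h sample number 2). A fit of the 2 groups alone called 0 at 18 h against 12 h, and DESeq2 and the date covariate each called 1 (Dusp5) at 96 h against 24 h.

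Uncalled log2 values changed sign without single samples for Dusp5 (3 h -0.34 to 1.67, 6 h -0.38 to 1.60, 12 h -0.41 to 1.58, 18 h -1.53 to 0.42), Dusp6 (6 h -0.0233 to 0.48), Spry2 (24 h -0.51 to 0.19), Spry4 (3 h -0.38 to 1.17, 6 h -0.0822 to 1.45, 18 h -0.10 to 1.39, 24 h -1.27 to 0.21, 96 h -1.51 to 0.0058) and Phlda1 (18 h -0.31 to 0.11), and at 96 h against 6 h for Hbegf (-0.68 to 0.15) and Dusp4 (-0.12 to 1.09). Dusp6 at 6 h was -0.0044 with DESeq2 and -0.0039 with RLE factors. With library-size scaling Spry2 was 0.0763 at 18 h and 0.17 at 24 h and Phlda1 0.16 at 18 h. With the replicate number as a block Phlda1 at 18 h was 0.0055; the pairing changed no call of a member beyond those of Dusp4 and Phlda1 given above, but of the pathway lists it called 7 genes at 96 h against 0 h in place of 10. Library-size scaling moved 5 of 70 mean levels by over 1 SD, by ratios of 0.892 to 1.13.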
